A study of Mus musculus with 18 samples.

Results

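The core circadian clock genes form a feedback loop of transcription that runs in most mammalian cells, and 10 of them were followed here through the mouse cochlea: Arntl, Npas2, Clock, Cry1, Per1, Per2, Per3, Nr1d1, Nr1d2 and Dbp. They were selected by gene symbol, and all 10 were present among the 46583 genes of the deposited table. The list itself was chosen with earlier results of these data known, so counts of members beside shares of all genes are description only. The samples were cochleae of 4-week-old mice cut into base, middle and apex. The groups were Fst cKO base, middle and apex, from mice with a conditional knock-out of Fst, the gene of the activin-binding protein follistatin, and control base, middle and apex, from untreated mice labelled WT. Tissue of each group was pooled before RNA was extracted, and 3 technical libraries were made of each RNA, so the 18 libraries stand for 6 pools, and every comparison of groups sets single pools side by side. The Cre line behind the knock-out, the number and sex of the pooled animals and the hour at which they were killed are not given in the sources used here. No time series was taken, so no rhythm can be read from these levels, and the part of the hour in the differences between the groups was not tested.

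In the clock, the proteins CLOCK and BMAL1 (encoded by Arntl) bind E-box sequences as a pair and activate the genes of their own inhibitors, the Period and Cryptochrome proteins. NPAS2 can take the place of CLOCK. BMAL1 also drives the nuclear receptors REV-ERBα (Nr1d1) and REV-ERBβ (Nr1d2), which repress Arntl and Npas2 through ROR elements, and the transcription factor DBP, which acts at D-boxes. Because of this wiring, Arntl and Npas2 transcripts peak at another time of day than those of Dbp and the Period genes in tissues of mice kept on a light cycle, and the cochlea is known to hold such a clock. The members were therefore described as an Arntl/Npas2 limb, a Per/Dbp limb (Per1, Per2, Per3 and Dbp), the Rev-erb pair, and Clock and Cry1.

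Library totals ran from 24446760 to 33732726 counts, and every member was read in every library and passed the filter on low counts. Levels are given as CPM (counts scaled to the library total), and fold changes come from edgeR with TMM scaling, so small differences in CPM and in log2 change need not match. The targeted gene, Fst, was lower in the Fst cKO apex and middle, with log2 changes of -1.29 and -1.10, and its base value of -0.22 did not pass the test (adjusted p = 0.308). Marker genes of hair cells, supporting cells, spiral ganglion neurons and stria vascularis were all detected in every group.

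Promoters were read to show which known clock elements lie next to the transcription starts of the members. RefSeq (GRCm38.p6) gave windows of 300 bases, from 250 before to 50 after an annotated start, for 9 of the 10 members, the exception being Per2. Motifs were searched on both strands, and no match overlapped another: the E-box CACGTG, found in 7.15% of 32851 promoters, the ROR element TAGGTCA, in 2.61%, and the D-box TTATGNAA, in 3.38%. The windows with a match follow, together with that of Ciart, a repressor of CLOCK and BMAL1, and capitals mark the matches.
Arntl, second annotated start, chr7:113207261-113207560, plus strand: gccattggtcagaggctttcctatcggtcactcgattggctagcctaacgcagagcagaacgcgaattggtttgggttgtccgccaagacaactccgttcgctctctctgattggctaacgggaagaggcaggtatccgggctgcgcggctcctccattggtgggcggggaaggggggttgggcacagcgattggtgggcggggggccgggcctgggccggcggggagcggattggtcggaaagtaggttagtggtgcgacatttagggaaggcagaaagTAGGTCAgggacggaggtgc
Cry1, chr10:85185005-85185304, minus strand: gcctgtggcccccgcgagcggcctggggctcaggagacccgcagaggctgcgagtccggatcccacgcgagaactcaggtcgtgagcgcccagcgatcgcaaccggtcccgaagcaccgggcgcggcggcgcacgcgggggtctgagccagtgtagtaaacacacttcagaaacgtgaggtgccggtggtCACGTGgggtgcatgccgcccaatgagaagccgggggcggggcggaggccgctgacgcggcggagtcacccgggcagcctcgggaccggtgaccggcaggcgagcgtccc
Per1, first annotated start, chr11:69098699-69098998, plus strand: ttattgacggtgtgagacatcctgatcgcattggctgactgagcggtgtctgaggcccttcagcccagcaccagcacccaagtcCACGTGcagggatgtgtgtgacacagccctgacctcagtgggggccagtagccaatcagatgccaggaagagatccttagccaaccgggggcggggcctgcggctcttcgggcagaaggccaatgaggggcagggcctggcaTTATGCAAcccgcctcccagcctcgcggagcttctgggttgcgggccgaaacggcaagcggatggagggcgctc
Per3, chr4:151044616-151044915, minus strand: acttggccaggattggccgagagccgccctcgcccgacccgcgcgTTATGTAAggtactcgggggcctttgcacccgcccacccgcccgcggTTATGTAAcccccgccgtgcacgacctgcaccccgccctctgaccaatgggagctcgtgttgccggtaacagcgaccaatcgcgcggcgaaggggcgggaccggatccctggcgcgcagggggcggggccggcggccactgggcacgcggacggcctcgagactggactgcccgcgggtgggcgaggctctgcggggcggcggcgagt
Ciart, chr3:95882179-95882478, minus strand: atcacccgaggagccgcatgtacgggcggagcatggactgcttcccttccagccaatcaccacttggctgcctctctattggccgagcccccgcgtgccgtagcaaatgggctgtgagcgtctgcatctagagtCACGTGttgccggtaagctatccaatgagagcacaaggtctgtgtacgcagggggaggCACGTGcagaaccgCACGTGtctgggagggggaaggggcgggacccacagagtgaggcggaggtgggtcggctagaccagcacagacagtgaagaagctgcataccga

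The Arntl window holds a ROR element at position 31 after the start, the kind of site through which REV-ERB proteins repress this gene. Cry1 holds an E-box at position -60. Per1 holds an E-box at position -166 and a D-box at position -24. Per3 holds D-boxes at positions -205 and -158, and Ciart holds E-boxes at positions -116, -58 and -44. Positions count from the annotated start to the first letter of the match. None of these letters was found in the windows of Npas2, Clock, Dbp, Nr1d1 and Nr1d2, which says nothing of sites elsewhere in these genes.

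The comparison of Fst cKO with control set the genotypes side by side in each region, although the lower Fst level did not pass in the base. Arntl and Npas2 were lower in the Fst cKO in every region, Per1, Per2, Per3 and Dbp were higher in every region, and so, by less, were Nr1d1 and Nr1d2. By adjusted p alone, 9 of the 10 members differed in each region, where 36.1% of the 17901 genes tested did so in the base, 35.7% in the middle and 40.6% in the apex. Of these members 6 were higher and 3 lower in each region, beside 16.5% of the genes higher and 19.6% lower in the base, 17.9% and 17.7% in the middle, and 21.8% and 18.8% in the apex. The 9 passed with the same sign in all of base, middle and apex, as 6.47% of the genes did: 6 were higher throughout, beside 2.9% of the genes, and 3 lower throughout, beside 3.57%. Members were chosen with earlier results of these data known, so these counts describe them and are no test of the set. Libraries of the genotypes did not overlap for 44.2% of the genes in the base, 45.9% in the middle and 49.2% in the apex, and with the same sign in each region for 8.02% of the genes and for 9 members. No member reached an absolute log2 change of 1, the size required here for a call, which 3.03% of the genes passed in the base, 2.72% in the middle and 2.04% in the apex. Sizes of at least 0.5 on the log2 scale, with an adjusted p under 0.05, were reached by 4 members in the base (Npas2, Per1, Per2 and Dbp), 5 in the middle (those of the base without Per1, with Arntl and Per3) and 2 in the apex (Per2 and Dbp), beside 8.12%, 6.56% and 5.65% of the genes. The median log2 change of the members was 0.161 in the base, 0.358 in the middle and 0.182 in the apex, beside -0.016, -0.001 and 0.005 over all genes tested. Adjusted p-values here are from edgeR's quasi-likelihood test over all genes, an error after a log2 change is its standard error, and both carry the spread between technical libraries of 1 pool only.

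**Figure D1:**
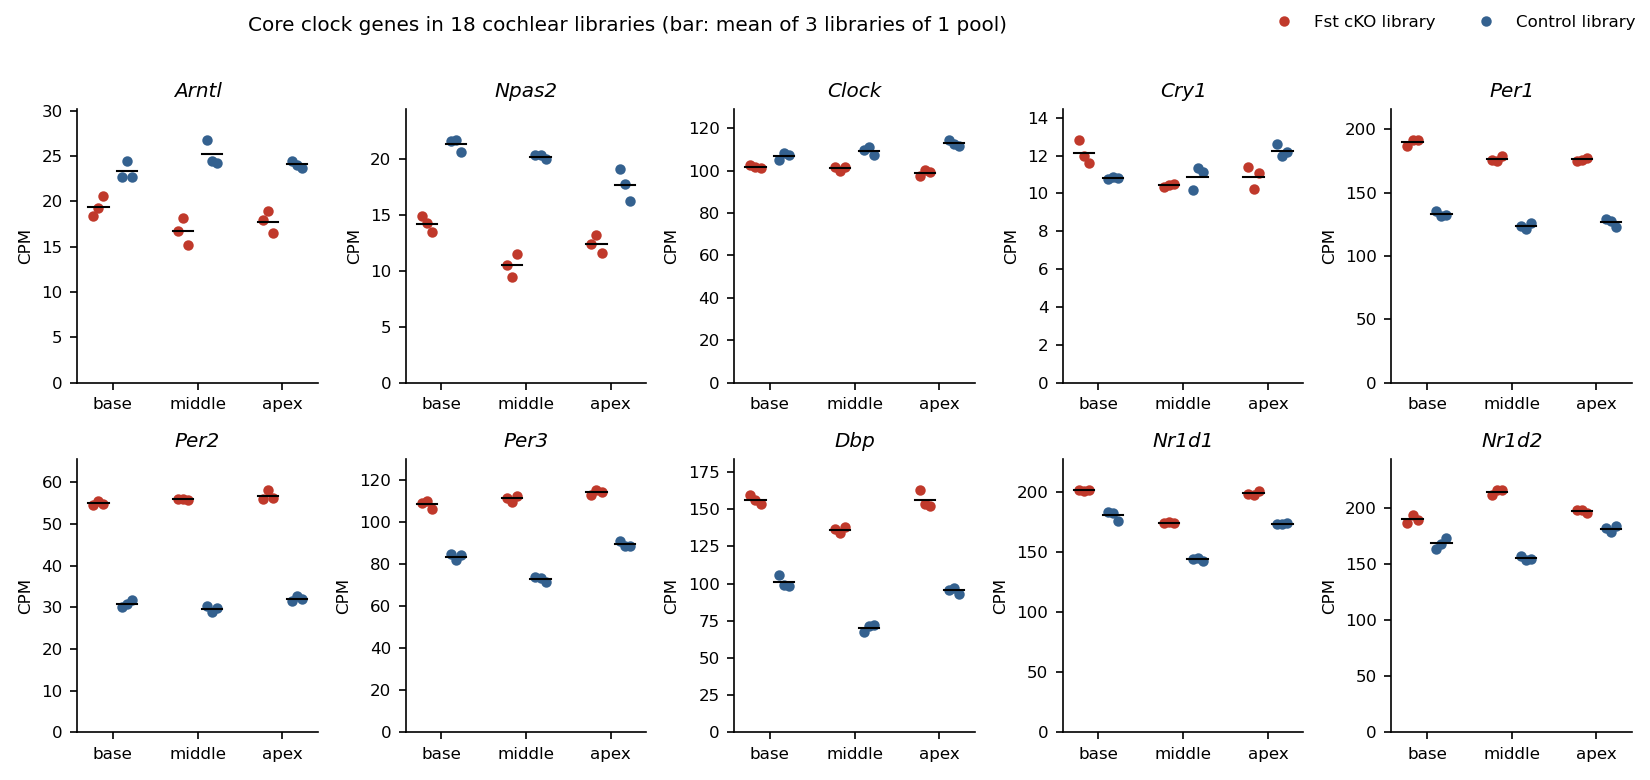
CPM of the 10 clock genes in each library, with Fst cKO left of control in base, middle and apex. Points are technical libraries (3 per pool), bars their mean, and the axes start at 0. Libraries of the genotypes do not overlap in any region except for Cry1 in the middle.

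Npas2 (ENSMUSG00000026077; chromosome 1, 39193731 to 39363236, plus strand), a partner of BMAL1 that can replace CLOCK, had the largest decrease of the members in each region. Positions of the genes are on GRCm38/mm10. Its level was 14.8, 14.3 and 13.5 CPM in the Fst cKO base libraries, against 21.6, 21.7 and 20.6 CPM in the control base libraries. It was 10.5, 9.43 and 11.5 CPM in the Fst cKO middle libraries, against 20.3, 20.3 and 19.9 CPM in the control middle libraries. It was 12.4, 13.2 and 11.6 CPM in the Fst cKO apex libraries, against 19.04, 17.7 and 16.2 CPM in the control apex libraries. The Fst cKO libraries lay below all control libraries throughout, and the highest Fst cKO library lay below the lowest control library of any region. The log2 change was -0.60 ± 0.0602 (adjusted p = 2.93e-10) in the base, -0.96 ± 0.0612 (adjusted p = 3.12e-15) in the middle and -0.48 ± 0.0640 (adjusted p = 1.00e-07) in the apex.

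Arntl (ENSMUSG00000055116; chromosome 7, 113207465 to 113314126, plus strand) encodes BMAL1, the subunit without which the loop stops. Its level was 18.4, 19.2 and 20.6 CPM in the Fst cKO base libraries, against 22.7, 24.5 and 22.7 CPM in the control base libraries. It was 16.7, 18.2 and 15.2 CPM in the Fst cKO middle libraries, against 26.8, 24.5 and 24.3 CPM in the control middle libraries. It was 17.9, 18.9 and 16.5 CPM in the Fst cKO apex libraries, against 24.4, 24.04 and 23.7 CPM in the control apex libraries. As for Npas2, the genotypes did not overlap in any region, and the change was largest by value in the middle. The log2 change was -0.27 ± 0.0567 (adjusted p = 1.72e-04) in the base, -0.60 ± 0.0543 (adjusted p = 2.52e-11) in the middle and -0.41 ± 0.0570 (adjusted p = 2.22e-07) in the apex.

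Per2 (ENSMUSG00000055866; chromosome 1, 91415982 to 91459324, minus strand), a Period inhibitor of CLOCK and BMAL1, had the largest increase of the members in base and apex. Its level was 54.6, 55.4 and 54.8 CPM in the Fst cKO base libraries, against 30.1, 30.8 and 31.8 CPM in the control base libraries. It was 55.9, 56.05 and 55.7 CPM in the Fst cKO middle libraries, against 30.2, 28.8 and 29.8 CPM in the control middle libraries. It was 55.96, 58.2 and 56.2 CPM in the Fst cKO apex libraries, against 31.6, 32.6 and 31.96 CPM in the control apex libraries. The 9 Fst cKO libraries lay between 54.6 and 58.2 CPM and the 9 control libraries between 28.8 and 32.6 CPM, so the regions of a genotype were close together while the genotypes were 1.77-fold, 1.87-fold and 1.80-fold apart in base, middle and apex. The log2 change was 0.82 ± 0.0299 (adjusted p = 1.98e-22) in the base, 0.90 ± 0.0286 (adjusted p = 3.89e-24) in the middle and 0.85 ± 0.0292 (adjusted p = 6.06e-23) in the apex.

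Per1 (ENSMUSG00000020893; chromosome 11, 69095217 to 69109960, plus strand), which is also an early target of light and hormone signals, was 187, 192 and 192 CPM in the Fst cKO base libraries, against 136, 131 and 132 CPM in the control base libraries. It was 176, 175 and 179 CPM in the Fst cKO middle libraries, against 124, 121 and 126 CPM in the control middle libraries. It was 175, 176 and 178 CPM in the Fst cKO apex libraries, against 129, 128 and 123 CPM in the control apex libraries. The libraries of the genotypes were far apart and the changes close to each other, at 0.50 ± 0.0215 (adjusted p = 2.32e-20) in the base, 0.50 ± 0.0209 (adjusted p = 1.83e-20) in the middle and 0.50 ± 0.0220 (adjusted p = 8.49e-20) in the apex on the log2 scale.

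Per3 (ENSMUSG00000028957; chromosome 4, 151003652 to 151044665, minus strand), the Period gene the loop can run without, was 109, 109.9 and 106 CPM in the Fst cKO base libraries, against 84.5, 81.7 and 84.02 CPM in the control base libraries. It was 111, 109 and 112 CPM in the Fst cKO middle libraries, against 73.8, 73.2 and 71.6 CPM in the control middle libraries. It was 113, 115 and 114 CPM in the Fst cKO apex libraries, against 90.7, 88.7 and 88.4 CPM in the control apex libraries. The 9 Fst cKO libraries lay between 106 and 115 CPM, and the control middle was the lowest group. The log2 change was 0.37 ± 0.0234 (adjusted p = 2.17e-15) in the base, 0.59 ± 0.0228 (adjusted p = 1.21e-21) in the middle and 0.38 ± 0.0227 (adjusted p = 5.67e-16) in the apex.

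Dbp (ENSMUSG00000059824; chromosome 7, 45705088 to 45710203, plus strand), an output transcription factor of the PAR bZIP family, was 159.6, 156 and 154 CPM in the Fst cKO base libraries, against 106, 99.1 and 98.7 CPM in the control base libraries. It was 137, 134 and 138 CPM in the Fst cKO middle libraries, against 67.7, 71.3 and 72.3 CPM in the control middle libraries. It was 163, 154 and 152 CPM in the Fst cKO apex libraries, against 95.9, 97.2 and 93.1 CPM in the control apex libraries. Both genotypes were lowest in the middle, and the gap between them was widest there. The log2 change was 0.62 ± 0.0280 (adjusted p = 1.24e-19) in the base, 0.94 ± 0.0296 (adjusted p = 3.84e-24) in the middle and 0.73 ± 0.0281 (adjusted p = 1.43e-21) in the apex.

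The Rev-erb genes were higher in the Fst cKO by smaller steps. Nr1d1 (ENSMUSG00000020889; chromosome 11, 98767932 to 98775333, minus strand) was 201, 201 and 202 CPM in the Fst cKO base libraries, against 183, 182 and 176 CPM in the control base libraries. In the middle it was 174, 174 and 174 CPM in the Fst cKO middle libraries, against 144, 145 and 142 CPM in the control middle libraries, and in the apex 198, 197 and 201 CPM in the Fst cKO apex libraries, against 173, 173 and 174 CPM in the control apex libraries. Its log2 change was 0.15 ± 0.0187 (adjusted p = 4.04e-08) in the base, 0.26 ± 0.0191 (adjusted p = 1.13e-13) in the middle and 0.22 ± 0.0187 (adjusted p = 4.48e-12) in the apex.

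Nr1d2 (ENSMUSG00000021775; chromosome 14, 18204054 to 18239127, minus strand) was 187, 194 and 189 CPM in the Fst cKO base libraries, against 164, 168 and 173 CPM in the control base libraries. In the middle it was 211, 216 and 216 CPM in the Fst cKO middle libraries, against 157, 154 and 155 CPM in the control middle libraries, and in the apex 198, 198 and 196 CPM in the Fst cKO apex libraries, against 182, 179 and 184 CPM in the control apex libraries. The Fst cKO was highest in the middle and the control lowest there. The log2 change was 0.17 ± 0.0213 (adjusted p = 4.79e-08) in the base, 0.45 ± 0.0197 (adjusted p = 4.82e-20) in the middle and 0.14 ± 0.0206 (adjusted p = 4.66e-07) in the apex.

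Clock (ENSMUSG00000029238; chromosome 5, 76209868 to 76304792, minus strand), whose transcript is known to vary little over the day, was 103, 102 and 101 CPM in the Fst cKO base libraries, against 105, 108 and 107 CPM in the control base libraries. It was 102, 99.8 and 102 CPM in the Fst cKO middle libraries, against 109.6, 111 and 107 CPM in the control middle libraries. It was 97.3, 100.2 and 99.5 CPM in the Fst cKO apex libraries, against 115, 112 and 112 CPM in the control apex libraries. The libraries were apart in each region, but by at most 1.12-fold, with log2 changes of -0.08 ± 0.0223 (adjusted p = 0.0044) in the base, -0.13 ± 0.0210 (adjusted p = 8.88e-06) in the middle and -0.17 ± 0.0220 (adjusted p = 1.02e-07) in the apex.

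Cry1 (ENSMUSG00000020038; chromosome 10, 85131700 to 85185064, minus strand), the Cryptochrome repressor, was the member without a common direction. It was 12.8, 11.97 and 11.6 CPM in the Fst cKO base libraries, against 10.8, 10.9 and 10.8 CPM in the control base libraries. In the middle it was 10.3, 10.5 and 10.5 CPM in the Fst cKO middle libraries, against 10.2, 11.4 and 11.1 CPM in the control middle libraries, and in the apex 11.4, 10.2 and 11.1 CPM in the Fst cKO apex libraries, against 12.6, 11.97 and 12.2 CPM in the control apex libraries. The Fst cKO was above control in the base, overlapped it in the middle and was below it in the apex, and the log2 change of 0.15 ± 0.0622 (adjusted p = 0.0541) in the base, -0.07 ± 0.0607 (adjusted p = 0.403) in the middle and -0.15 ± 0.0616 (adjusted p = 0.0562) in the apex passed in no region.

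**Figure D2:**
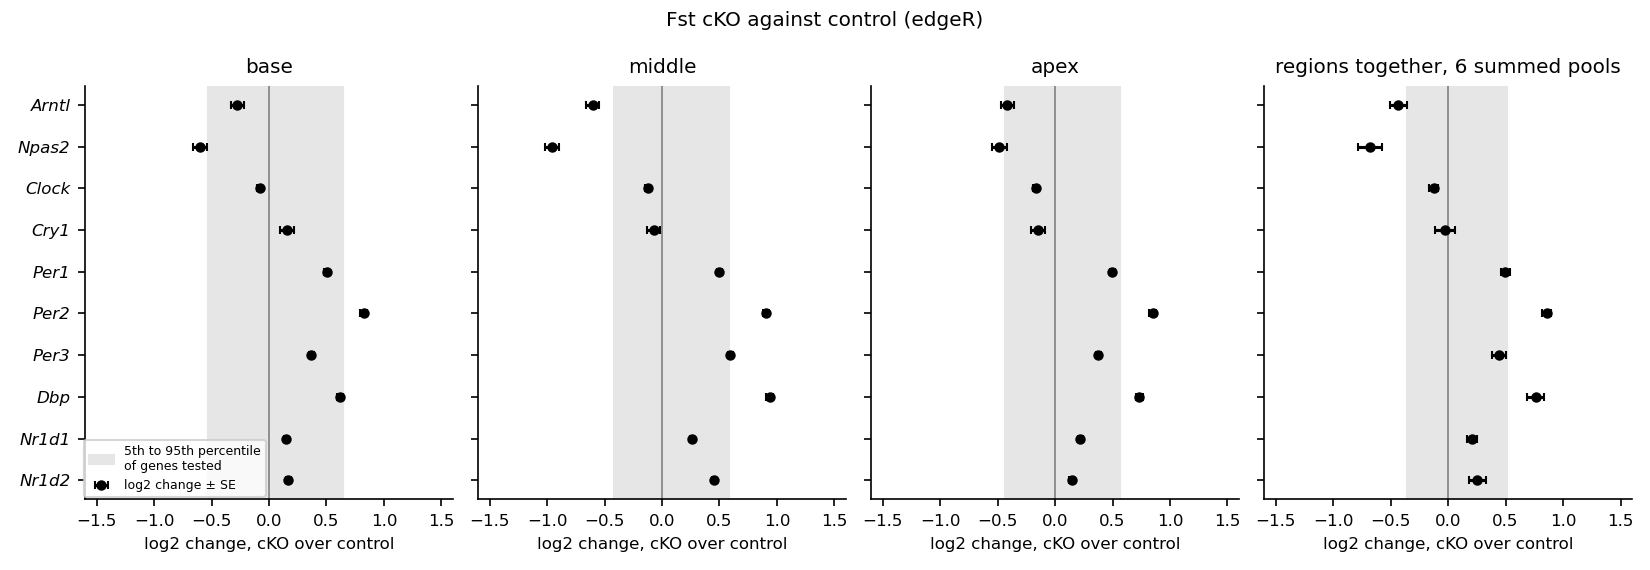
Log2 change of each member, Fst cKO over control (points, with SE), in base, middle and apex from 3 libraries per group, and over the regions from 6 summed pools. Grey bands span the 5th to 95th percentile of all genes tested. Per2 lies beyond the band in every panel and Npas2 below it in every panel.

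The band of all genes gives these sizes a scale. In the base, 90% of the genes tested had log2 changes between -0.53 and 0.64, in the middle between -0.41 and 0.59 and in the apex between -0.44 and 0.56. Per2 lay beyond the upper bound and Npas2 beyond the lower bound in each region. Dbp lay beyond the upper bound in middle and apex, Per3 in the middle, and Arntl beyond the lower bound in the middle. Per1, Nr1d1, Nr1d2, Clock and Cry1 lay inside the band in each region.

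The limbs were then set against each other within a library, as the mean log2(CPM + 0.1) of Per1, Per2, Per3 and Dbp minus that of Arntl and Npas2. In the base the difference was 2.79 ± 0.016 in the Fst cKO and 1.78 ± 0.061 in control (SD, n = 3 libraries of 1 pool each). In the middle it was 3.06 ± 0.007 in the Fst cKO and 1.54 ± 0.051 in control. In the apex it was 2.95 ± 0.087 in the Fst cKO and 1.89 ± 0.052 in control. The Per/Dbp limb thus stood higher above the Arntl/Npas2 limb in all 9 Fst cKO libraries than in any control library. The genes of the limbs were chosen with earlier results of these data known, so this separation is a description and no test. The libraries of a group are technical libraries of 1 pool. The gap between genotypes was 1.01 in the base, 1.51 in the middle and 1.06 in the apex, or 2.01-fold, 2.85-fold and 2.09-fold in the ratio of the limbs. Both limbs contributed: the Per/Dbp limb differed by 0.59, 0.75 and 0.59 in base, middle and apex, and the Arntl/Npas2 limb by -0.42, -0.77 and -0.47.

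**Figure D3:**
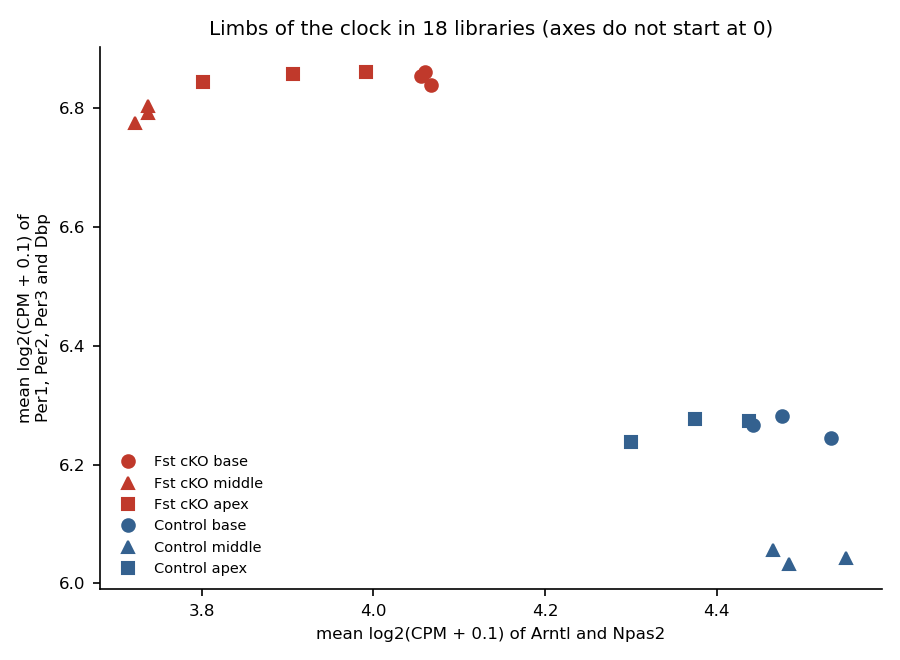
Mean log2(CPM + 0.1) of Arntl and Npas2 (x) against that of Per1, Per2, Per3 and Dbp (y) in each of 18 libraries. Neither axis starts at 0. The Fst cKO libraries fill the upper left and the control libraries the lower right, with no overlap on either axis.

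A fit on the 6 pools, with the libraries of each pool summed and region as a factor, compared the genotypes with region standing in for replication. It leaves 2 residual degrees of freedom, and pools of 1 genotype may share animals. Under edgeR this fit called 0 of 19446 genes (0%) at an adjusted p under 0.05. Per2 had the smallest p of all genes, with a log2 change of 0.86 ± 0.0393 (adjusted p = 0.0852). Per1 ranked 10 at 0.50 ± 0.0382 (adjusted p = 0.116) and Dbp 23 at 0.76 ± 0.0715 (adjusted p = 0.129). Npas2 was -0.68 ± 0.106 (adjusted p = 0.226) and Arntl -0.43 ± 0.0763 (adjusted p = 0.242). An unadjusted p under 0.05 was reached by 9 of the 10 members, Cry1 being the exception, and by 11% of the genes (2133). DESeq2 on the same pools called 374 genes (2.23%), and 7 members were among them: Per2 (adjusted p = 1.02e-28), Per1 (8.11e-17), Dbp (2.12e-16), Per3 (2.94e-06), Npas2 (1.43e-04), Arntl (0.00906) and Nr1d1 (0.0193). Without the base pools, an alternative chosen after seeing the data, edgeR called 21 genes (0.11%). Per2 was among them, with a log2 change of 0.88 (adjusted p = 0.0368). That fit has still fewer residual degrees of freedom, and edgeR called 1 gene without the middle pools and 0 without the apex pools.

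Along the cochlea, which receives high frequencies in the base and low ones in the apex, no member reached an absolute log2 change of 1 in any regional comparison. The largest regional change of a member was -0.55, for Dbp in control middle against control base, beside -0.96 between genotypes for Npas2 in the middle. The control middle had the lowest mean CPM of the 6 groups for each of Per1, Per2, Per3, Dbp, Nr1d1 and Nr1d2. In the summed pools, edgeR called 0 members in apex against base, middle against base and apex against middle, beside 7.08%, 0% and 1.27% of the genes. DESeq2 called 2 members in middle against base, Dbp and Nr1d1, beside 3.18% of the genes. In control middle against control base, 5 members were lower by adjusted p alone, where 31.5% of the genes tested passed in either direction. These were Dbp at -0.55 ± 0.0324 (adjusted p = 3.74e-16), Nr1d1 at -0.35 ± 0.0196 (adjusted p = 6.87e-17), Per3 at -0.22 ± 0.0249 (adjusted p = 6.05e-09), Nr1d2 at -0.14 ± 0.0219 (adjusted p = 3.43e-06) and Per1 at -0.13 ± 0.0231 (adjusted p = 2.22e-05), as log2 changes. Dbp alone exceeded 0.5 in size, which 6.52% of the genes did. Arntl at 0.08 ± 0.0523 (adjusted p = 0.248) and Npas2 at -0.10 ± 0.0545 (adjusted p = 0.148) did not pass.

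In control apex against control base, 4 members passed by adjusted p alone, all lower in the apex, beside 52.5% of the genes. Npas2 had the largest change, -0.34 ± 0.0561 (adjusted p = 3.19e-06), followed by Dbp at -0.15 ± 0.0304 (adjusted p = 4.86e-05), Per1 at -0.14 ± 0.0230 (adjusted p = 2.58e-06) and Nr1d1 at -0.13 ± 0.0187 (adjusted p = 4.33e-07). In control apex against control middle, 5 members passed beside 45.5% of the genes. Dbp at 0.40 ± 0.0328, Per3 at 0.25 ± 0.0246, Nr1d1 at 0.23 ± 0.0199 and Nr1d2 at 0.18 ± 0.0214 were higher in the apex, and Npas2 at -0.24 ± 0.0567 was lower. In both comparisons of the control apex, the shares of members past the threshold were near or below those of all genes. In control middle against control base, 5 of 10 members passed, all lower, beside 31.5% of the genes in either direction. In the summed pools, over both genotypes, edgeR called 0 members and 0% of the genes in middle against base. With 10 members, this gap is not read as a trait of the members.

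In the Fst cKO the order of the regions was in part another one. In Fst cKO middle against Fst cKO base, 7 members passed by adjusted p alone beside 46.4% of the genes. Lower in the middle were Npas2 at -0.47 ± 0.0678 (adjusted p = 4.23e-07), Cry1 at -0.25 ± 0.0608 (adjusted p = 9.43e-04), Arntl at -0.25 ± 0.0590 (adjusted p = 7.07e-04), Nr1d1 at -0.24 ± 0.0181 (adjusted p = 1.23e-13), Dbp at -0.23 ± 0.0254 (adjusted p = 1.40e-09) and Per1 at -0.14 ± 0.0194 (adjusted p = 3.30e-07). Nr1d2 was higher in the middle, by 0.15 ± 0.0192 (adjusted p = 5.62e-08), while Per3 at 0.01 ± 0.0214 (adjusted p = 0.793) and Per2 at -0.004 ± 0.0254 (adjusted p = 0.923) did not pass. Fst cKO apex against Fst cKO base gave 6 members beside 55.3% of the genes, all lower in the apex (Arntl, Npas2, Clock, Cry1, Per1 and Nr1d1), with Npas2 at -0.23 ± 0.0686 (adjusted p = 0.00465) the largest. Fst cKO apex against Fst cKO middle gave 4 beside 50.9%, with Npas2 at 0.24 ± 0.0693, Dbp at 0.19 ± 0.0251 and Nr1d1 at 0.18 ± 0.0179 higher in the apex and Nr1d2 at -0.13 ± 0.0188 lower.

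Whether the regional changes differed between the genotypes was tested as an interaction. For middle against base, 7 members passed by adjusted p alone beside 33.4% of the genes. The middle-base change was higher in the Fst cKO than in control for Dbp at 0.32 ± 0.0412 (adjusted p = 7.70e-08), Nr1d2 at 0.29 ± 0.0291 (adjusted p = 4.37e-10), Per3 at 0.23 ± 0.0328 (adjusted p = 6.88e-07) and Nr1d1 at 0.11 ± 0.0264 (adjusted p = 7.93e-04). It was lower for Npas2 at -0.36 ± 0.0870 (adjusted p = 0.00115), Arntl at -0.33 ± 0.0788 (adjusted p = 0.0011) and Cry1 at -0.23 ± 0.0869 (adjusted p = 0.0424). Per1 at -0.004 ± 0.0311 (adjusted p = 0.944) and Per2 at 0.08 ± 0.0422 (adjusted p = 0.222) did not pass. Of the genes of the limbs, Arntl, Npas2, Per3 and Dbp thus lay farther apart between genotypes in the middle than in the base. The apex-middle difference passed for 4 members beside 38% of the genes, namely Npas2 at 0.47 ± 0.0896, Nr1d2 at -0.31 ± 0.0285, Per3 at -0.22 ± 0.0323 and Dbp at -0.20 ± 0.0414. The apex-base difference passed for 4 beside 24.8%, namely Cry1 at -0.30 ± 0.0876, Dbp at 0.12 ± 0.0397, Clock at -0.09 ± 0.0313 and Nr1d1 at 0.07 ± 0.0260.

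**Figure D4:**
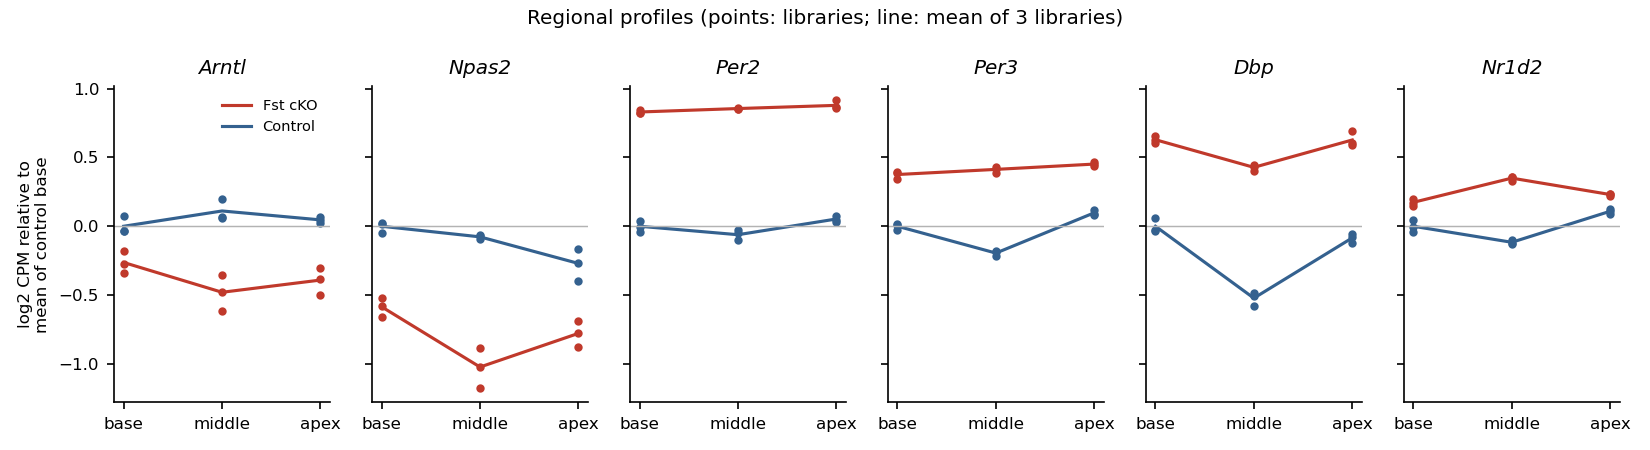
Log2 CPM of 6 members relative to the mean of control base, over base, middle and apex. Points are libraries and lines join the means of 3 libraries, for Fst cKO and control. The lines stay apart in every region, and the gap between the lines is widest in the middle for each gene shown, though the interaction did not pass for Per2 against base or apex, or for Arntl against apex.

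Levels of the members were ordered by the authors' FPKM, which accounts for transcript length. In all Fst cKO regions the order was Dbp, Nr1d1, Nr1d2, Per1, Per3, Clock, Per2, Arntl, Cry1 and Npas2. In Fst cKO middle this ran from 99.9 ± 2.56 FPKM for Dbp to 3.17 ± 0.478 FPKM for Npas2 (SD, n = 3 libraries). In all control regions Nr1d1 stood first and Cry1 last, at 61.2 ± 0.780 FPKM for Nr1d1 and 3.84 ± 0.221 FPKM for Cry1 in control middle. Dbp was thus above Nr1d1 in the Fst cKO and Per2 above Arntl, whereas in control Arntl was above Per2, and Nr1d1 above Dbp in middle and apex. Neighbours closer than the sum of their SDs were Cry1 and Npas2 in each Fst cKO region, Nr1d2 and Per1 in Fst cKO base, Nr1d1 and Dbp in control base, and Per2 and Npas2 in control apex.

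Some members share sequence with other genes. The library kit does not mark strand, so reads cannot be assigned where Dbp overlaps Sphk2 on the opposite strand by 737 bases or where Nr1d1 overlaps Thra by 1075 bases. Per3 lies within the annotated span of Camta1. Of these partners none was higher in the Fst cKO by adjusted p in any region: log2 changes in base, middle and apex were -0.15, -0.13 and 0.04 for Sphk2, -0.02, -0.21 and -0.03 for Thra and -0.38, 0.03 and -0.18 for Camta1. Arntl overlaps an antisense gene by 2394 bases. The part of reads shared with overlapping genes in the values of the members was not tested.

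Beyond the 10 members, 20 other genes of the clock and its outputs were examined, and all were tested. None was called between genotypes with the fold threshold. By adjusted p alone, 10 were higher and 0 lower in the base, 12 higher and 2 lower in the middle, and 10 higher and 2 lower in the apex, with median log2 changes of 0.096, 0.137 and 0.111. Over all genes tested, 16.5% were higher and 19.6% lower in the base, 17.9% and 17.7% in the middle, and 21.8% and 18.8% in the apex, with medians of -0.016, -0.001 and 0.005. The largest was Ciart, the repressor whose promoter stands with those of the members. Ciart was 21.7, 22.5 and 22.8 CPM in Fst cKO base, against 15.1, 14.9 and 16.2 CPM in control base, with log2 changes of 0.53 ± 0.0521, 0.65 ± 0.0497 and 0.65 ± 0.0523 in base, middle and apex (adjusted p = 1.48e-10, 4.33e-13 and 1.56e-12). Bhlhe41, a repressor that competes for E-boxes, had log2 changes of 0.20 ± 0.0269, 0.28 ± 0.0259 and 0.43 ± 0.0259 (adjusted p = 1.57e-07, 4.35e-11 and 5.01e-16). Tef, a relative of Dbp in the PAR bZIP family, was higher by 0.32 ± 0.0167, 0.38 ± 0.0156 and 0.31 ± 0.0168 (adjusted p = 7.79e-18, 7.41e-21 and 4.69e-17). Usp2, a deubiquitinase with a strong daily rhythm in mouse tissues, was higher by 0.40 ± 0.0351, 0.37 ± 0.0346 and 0.32 ± 0.0373 (adjusted p = 8.64e-12, 7.26e-11 and 8.00e-09). Nfil3, which represses at the D-boxes where DBP activates, was -0.07 ± 0.0799, -0.41 ± 0.0751 and -0.18 ± 0.0785 and passed in the middle only (adjusted p = 0.536, 4.37e-05 and 0.0657). Along the control cochlea, Rorb, a nuclear receptor of the ROR family, rose in the apex by a log2 change of 1.10 ± 0.0506 over base (adjusted p = 9.26e-20), where 5.48% of all genes were called.

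Genes of other systems that can shift with the hour or with handling of the animals were set beside the clock. Of 12 genes that respond to glucocorticoids, 10 were higher and 1 lower by adjusted p alone in each region, with median log2 changes of 0.28, 0.351 and 0.333 in base, middle and apex, where 16.5%, 17.9% and 21.8% of all genes were higher and 19.6%, 17.7% and 18.8% lower. Fkbp5, a chaperone of the glucocorticoid receptor, was 98.4, 99.7 and 98.7 CPM in Fst cKO middle, against 45.5, 43.4 and 45.99 CPM in control middle. It rose in the Fst cKO middle by 1.12 ± 0.0268 (adjusted p = 7.12e-28) and apex by 1.05 ± 0.0322 (adjusted p = 2.00e-24), and its base change of 0.83 ± 0.028 (adjusted p = 2.28e-23) stayed under the fold threshold. The list's summed level was 1560 to 1571 CPM in Fst cKO base against 1299 to 1308 CPM in control base, 1549 to 1567 CPM in Fst cKO middle against 1258 to 1259 CPM in control middle, and 1459 to 1467 CPM in Fst cKO apex against 1188 to 1193 CPM in control apex. Per1 is itself a known glucocorticoid target. The part of glucocorticoid signalling in the clock values was not tested.

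Of 15 immediate early genes, which mark recent stimulation of cells, 3 were higher and 3 lower by adjusted p alone in the base, 6 higher and 0 lower in the middle, and 6 higher and 4 lower in the apex, with medians of 0.025, 0.057 and 0.148. In either direction these are 6, 6 and 10 of 15 genes, beside 36.1%, 35.7% and 40.6% of all genes. Egr3 was called in the middle, at 2.02, 2.34 and 2.22 CPM in Fst cKO middle against 0.761, 1.21 and 1.21 CPM in control middle (log2 change 1.04 ± 0.199, adjusted p = 6.72e-05). Of 8 temperature-responsive genes, none was called, and by adjusted p alone 4 were higher and 2 lower in the base, 3 and 3 in the middle, and 5 and 2 in the apex, beside those same shares of all genes. Rbm3, a cold-inducible RNA-binding protein gene, was 102.5, 100.9 and 103.1 CPM in Fst cKO base against 82.6, 84.2 and 81.8 CPM in control base, with log2 changes of 0.29 ± 0.0278, 0.20 ± 0.0266 and 0.28 ± 0.0276 in base, middle and apex (adjusted p = 7.62e-11, 1.27e-07 and 1.55e-10). Hspa1b and Hspa1a, genes of the heat-inducible chaperone HSP70, were also higher in each region, Hspa1b by 0.41 ± 0.0761, 0.39 ± 0.0773 and 0.46 ± 0.0821 (adjusted p = 4.48e-05, 9.96e-05 and 1.82e-05), while Hspa8, the constitutive relative, was lower at -0.19, -0.10 and -0.26. The part of temperature or handling in the clock values was not tested. Cirbp, the cold-inducible RNA-binding protein gene whose daily rhythm follows body temperature, was 0.03, 0.00 and 0.02 in base, middle and apex and did not pass.

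**Figure D5:**
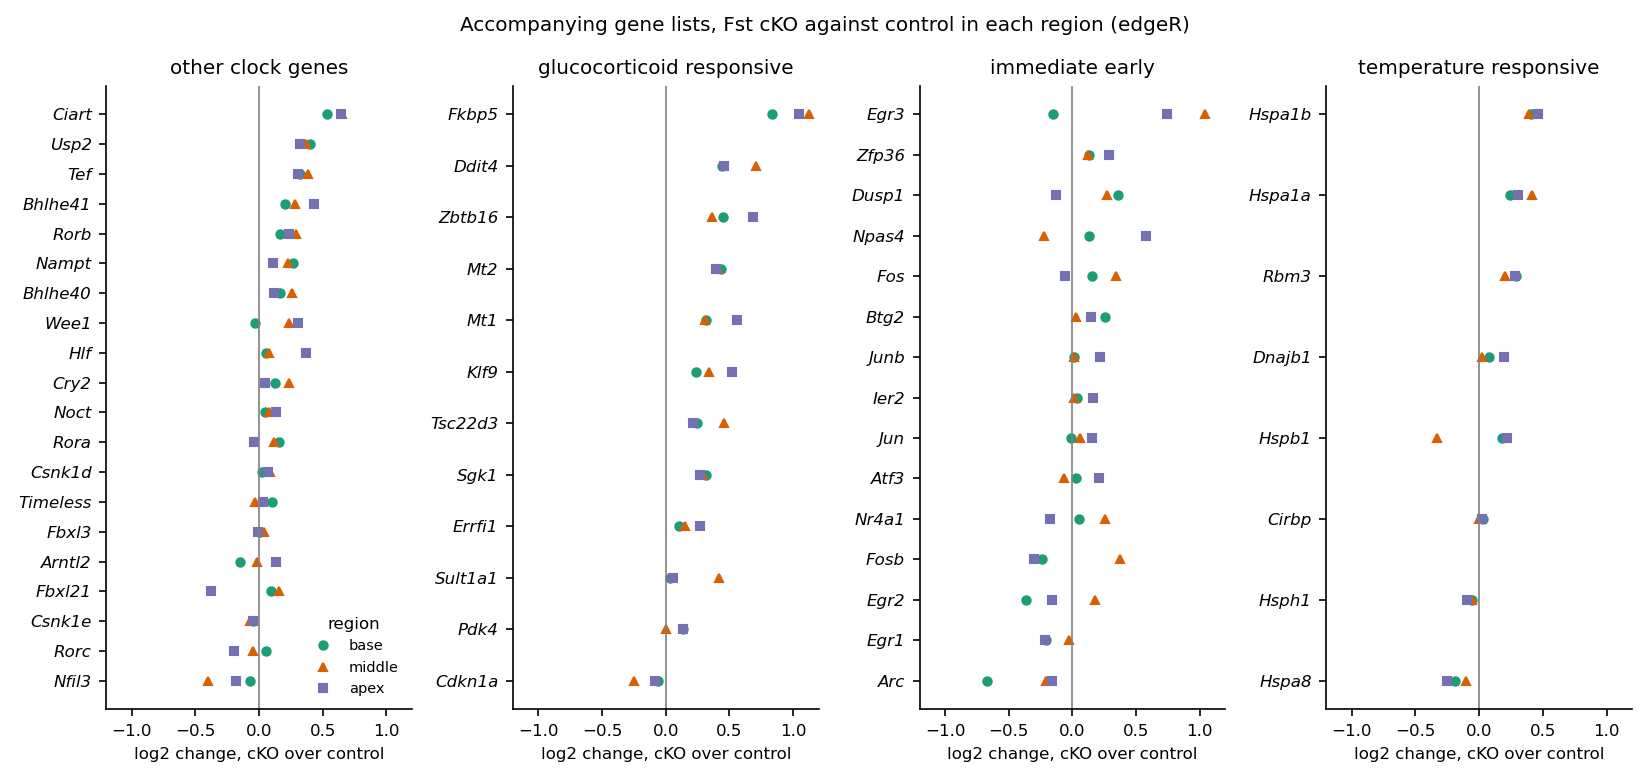
Log2 change, Fst cKO over control, of each gene of 4 accompanying lists in base, middle and apex. Glucocorticoid-responsive genes lie mostly to the right of 0 in each region (medians 0.28, 0.351 and 0.333). Immediate early genes lie on both sides of 0, with smaller medians that are also above 0 (0.025, 0.057 and 0.148).

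Marker genes of cochlear and of other cell types also differed between the pools. In bulk RNA, fewer cells of a type and less RNA per cell cannot be told apart. Summed markers of spiral ganglion neurons (6 genes) were lower in the Fst cKO in each region, at 2714 to 2723 CPM in Fst cKO base against 4307 to 4371 CPM in control base, 4962 to 4973 CPM in Fst cKO middle against 5358 to 5377 CPM in control middle, and 4817 to 4836 CPM in Fst cKO apex against 6657 to 6670 CPM in control apex. By adjusted p alone, 5 of these genes were lower in the base, 3 higher and 3 lower in the middle, and 6 lower in the apex. Over all genes tested, 19.6% were lower in the base, 17.9% higher and 17.7% lower in the middle, and 18.8% lower in the apex. Summed Schwann cell markers (4 genes) were lower in each region too, at 3184 to 3222 CPM in Fst cKO base against 3834 to 3885 CPM in control base, 4681 to 4719 CPM in Fst cKO middle against 4933 to 4991 CPM in control middle, and 4199 to 4246 CPM in Fst cKO apex against 5477 to 5501 CPM in control apex. Summed markers of the stria vascularis (5 genes) were higher in each region, at 2881 to 2907 CPM in Fst cKO base against 2105 to 2117 CPM in control base, 2436 to 2452 CPM in Fst cKO middle against 2288 to 2292 CPM in control middle, and 1855 to 1872 CPM in Fst cKO apex against 1695 to 1708 CPM in control apex. Other cochlear lists kept no common direction. Summed hair cell markers (7 genes) were lower in the Fst cKO base and apex and higher in the middle. Summed supporting cell markers (6 genes) were higher in base and apex and overlapped in the middle. Summed fibrocyte markers (4 genes) were lower in base and middle and higher in the apex.

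Among other cell types, summed markers of cerebellar neurons (5 genes) were 117 to 119 CPM in Fst cKO base against 14.5 to 15.1 CPM in control base, 52.2 to 54.9 CPM in Fst cKO middle against 13.4 to 14.8 CPM in control middle, and 14.9 to 16.4 CPM in Fst cKO apex against 15.3 to 16.6 CPM in control apex. Of these 5 genes, 5 were called higher in the base and 1 in the middle, beside 3.03% and 2.72% of all genes called in either direction. Gabra6 was at 0 in control base and in both apex groups. Airway markers (4 genes, 3 tested) were 94.6 to 97.1 CPM in Fst cKO base against 117.9 to 122.5 CPM in control base, 12.1 to 13.8 CPM in Fst cKO middle against 0.658 to 0.861 CPM in control middle, and 336 to 340.3 CPM in Fst cKO apex against 6.40 to 6.88 CPM in control apex. Sec14l3, an airway marker, was at 0 in both middle groups and in control apex. Oligodendrocyte and astrocyte markers (5 genes) were 90.3 to 92.8 CPM in Fst cKO base against 62.6 to 65.5 CPM in control base, 51.9 to 54.5 CPM in Fst cKO middle against 207 to 213 CPM in control middle, and 32.7 to 34.1 CPM in Fst cKO apex against 41.4 to 43.8 CPM in control apex. Red blood cell markers (4 genes) were 1263 to 1274 CPM in Fst cKO base against 424 to 433 CPM in control base, 796 to 802 CPM in Fst cKO middle against 786 to 791 CPM in control middle, and 747 to 762 CPM in Fst cKO apex against 305 to 309.7 CPM in control apex. Neutrophil markers (4 genes) were all called higher in the base. Their sum was 177 to 181 CPM in Fst cKO base against 57.2 to 57.8 CPM in control base. It was lower in the middle, at 135 to 138 CPM in Fst cKO middle against 151.5 to 153.5 CPM in control middle. In the apex it was 69.4 to 72.3 CPM in Fst cKO apex against 47.8 to 48.95 CPM in control apex. Osteoblast markers (4 genes) were called lower for 1 gene in the base and higher for 3 in the middle and 2 in the apex. Shares of all genes called in either direction were 3.03%, 2.72% and 2.04% in base, middle and apex. The part of these cell types in the clock values was not tested.

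Sex-chromosome transcripts moved with the genotype in every region. Xist, the RNA of X inactivation, was 57.7, 58.7 and 60.2 CPM in Fst cKO base against 302, 306 and 298 CPM in control base, and its log2 change was -2.37 ± 0.023 in the base, -1.77 ± 0.0198 in the middle and -2.16 ± 0.0198 in the apex. All 4 Y-linked transcripts followed were higher in the Fst cKO in each region, Eif2s3y by 1.02 ± 0.0394, 0.83 ± 0.0368 and 0.88 ± 0.0396. The mix of sexes and the genotype cannot be told apart in these pools.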

How the data were processed

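RNA of 6 cochlear pools (Fst cKO and control; base, middle and apex) was sequenced as 18 technical libraries, prepared with a TruSeq kit and Ribo-Zero per the labels' protocols. The submitters' processing notes name STAR 2.5.2b, Cuffdiff 2.2.1 and the build GRCm38/mm10, without saying what each tool did. The deposited table holds estimated counts (expected counts) per gene and library, not scaled, and FPKM values computed by the authors per library. Expected counts were rounded for the count models. Over all 46583 genes, zeros included, between 89.2% and 89.9% of a library's values were whole within 1e-06, and 21851 to 22799 genes per library had a count. FPKM served for levels between genes and as an alternative unit. Both kinds of value can hold reads shared between overlapping genes.

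Count models used edgeR 4.0.16 in R 4.3.3: filterByExpr kept 17901 genes, TMM factors ran from 0.977 to 1.03, and two-sided quasi-likelihood tests came from 1 model with a mean for each of 6 groups (12 residual degrees of freedom), with Benjamini-Hochberg adjustment over all genes. A call needed an adjusted p under 0.05 and an absolute log2 change of at least 1, because libraries of a pool differ little. The common coefficient of variation in edgeR was 0.00988 between libraries. It was 0.116 in the fit of summed pools with region and genotype as factors. No group has a second pool, so that value is what the fit leaves unexplained and no measured spread between pools of a group. The libraries are technical, so p-values carry the spread between them, each group has n = 1 pool, and chi-square per degree of freedom between libraries of a pool ran from 1.19 to 1.59. Pools were also summed and fitted with region and genotype as factors, on 19446 genes. A count of 0 allows up to 3 counts, or 0.0889 to 0.123 CPM, and intervals of this kind cover counting error only. DESeq2 1.42.0, limma 3.58.1 on log2(FPKM + 1) and log2(FPKM + 0.1), other filters and scalings, and leaving out each library were the alternatives. The code was tested on simulated data.

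Members and gene lists were chosen with earlier results of these data known. All 10 members are named. Other clock genes were to be named where called in a genotype or apex-base comparison (at most 6), and up to 4 genes of an accompanying list by size of change. Ciart, Bhlhe41, Tef, Usp2, Nfil3, Hspa8, Cirbp, the overlapping genes and the sex-chromosome transcripts fall outside this rule and were chosen after their values were seen. Genes most like the limbs were ranked by Pearson r over 6 group means among 805 genes averaging 5 CPM or more whose means spanned 1 or more on the log2 scale. Positions came from GENCODE M21 on GRCm38.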

Additional observations from a re-analysis of the deposited data

Results flagged for a closer look

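For 4 members a regional change differed between the genotypes by the interaction test itself (edgeR, adjusted p), and the libraries of both regions, in CPM, did not overlap and lay in opposite order in the Fst cKO and in control. The apex-middle change of Npas2 was higher in the Fst cKO than in control by 0.473 ± 0.0896 (adjusted p = 5.28e-05): Npas2 was higher in the apex than in the middle in the Fst cKO (0.24) and lower in control (-0.24). For Nr1d2 the middle-base change differed by 0.286 ± 0.0291 (adjusted p = 4.37e-10) and the apex-middle change by -0.31 ± 0.0285 (adjusted p = 4.16e-11), its middle being the highest region in the Fst cKO and the lowest in control. The apex-base change of Cry1 differed by -0.304 ± 0.0876 (adjusted p = 0.00853), at -0.19 in the Fst cKO and 0.11 in control, of which only the Fst cKO value passed (adjusted p = 0.00943, against 0.139 in control). For Clock it differed by -0.087 ± 0.0313 (adjusted p = 0.0386), at -0.08 in the Fst cKO (adjusted p = 0.00468) and 0.01 in control (adjusted p = 0.727). Fitted middle-base changes also had opposite signs, with libraries that overlapped in 1 genotype, for Arntl, at -0.25 in the Fst cKO and 0.08 in control (difference -0.329 ± 0.0788, adjusted p = 0.0011), and for Per3, at 0.008 in the Fst cKO and -0.22 in control (difference 0.228 ± 0.0328, adjusted p = 6.88e-07). All these sizes lie under an absolute log2 change of 1 and rest on 1 pool per group.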

How the results depend on the processing

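Across scalings, tests, filters, units and left-out libraries, 2023 of 2035 recomputed log2 changes kept their sign, and in the genotype comparisons on libraries every member kept its sign. Members past an adjusted p alone numbered 8 to 10 in the base, 9 in the middle and 9 to 10 in the apex over the alternatives. Library numbers gave no clear pairing of the samples. Of 45 same-number pairs, 6 correlated above 0.1 (median 0.005, highest 0.33), but 11 of the 18 libraries were closest to those of their own number. With the number as a replicate block, 0 members were called in each comparison and 9 passed by adjusted p alone in each region. Without a fold threshold, 9 members each were called for Fst cKO against control in base, middle and apex, 4 in control apex against base, 5 in control middle against base, 5 in control apex against middle, 6, 7 and 4 in the same comparisons of the Fst cKO, and 4, 7 and 4 in the interactions for apex-base, middle-base and apex-middle. With a threshold of 0.5 these were 4, 5 and 2 between genotypes and 1 in control middle against base. Leaving out single libraries gave 0 to 1 calls in the middle, the 1 being Npas2 without Fst cKO middle replicate 3.

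On the summed pools, DESeq2 called 7 members between genotypes and 2 in middle against base, and edgeR without the base pools, an alternative chosen after seeing the data, called 1. The edgeR count over all genes was 0, 374 with DESeq2, 21 without the base pools, 1 without the middle pools and 0 without the apex pools. Cry1 turned from -0.024 to 0.008 without the middle pools and to 0.041 without the apex pools. With Nr1d1, Nr1d2, Clock and Cry1 added to the limbs, the gap between genotypes was 0.635 in the base, 1.047 in the middle and 0.773 in the apex, and a pseudocount of 1 gave 1.463 in the middle. Single left-out libraries gave 0.974 to 1.031, 1.487 to 1.537 and 1.017 to 1.104.

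Values near 0 changed sign. Per3 in Fst cKO middle against base was -0.002 with DESeq2's size factors and test, -0.003 with FPKM under either pseudocount, and -0.006 to 0.02 over left-out libraries. Leaving out libraries gave -0.044 to 0.014 for Arntl in control apex against base, -0.05 to 0.028 for Cry1 in control middle against base, and -0.005 to 0.026 for the Per3 apex-base interaction. The cause was not tested. No setting can replace pools from other animals, so how far these genes vary between pools of 1 genotype is not measured here.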

Other observations

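The genes whose group means most resembled the difference between the limbs were sought among 805 genes, over the 6 groups, as a description with no test. The difference between the limbs is mostly one between genotypes, so genes that differ between the genotypes in every region rank high. Most alike were Eif2s3y (r = 0.951), a Y-linked gene, Fkbp5 (r = 0.865), Rps3a2 (r = 0.853), Tmem82 (r = 0.837) and Unc13c (r = 0.83). Unc13c had group means of 9.12, 10.1 and 3.87 CPM in Fst cKO base, middle and apex, against 2.71, 2.2 and 3.57 CPM in control.

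Most opposed were Gas5 (r = -0.945), Xist (r = -0.926), Them5 (r = -0.899), Derl3 (r = -0.867) and Ttn (r = -0.859). Gas5, a non-coding host gene of small nucleolar RNAs, had means of 17.9, 19.9 and 16.7 CPM in Fst cKO base, middle and apex, against 31.2, 37.1 and 37.7 CPM in control. Ttn, the gene of the muscle protein titin, had 8.73, 10.2 and 14.2 CPM in the Fst cKO, against 17.8, 22.0 and 21.8 CPM in control. The same measure for the genes of the limbs, which build the difference, ranged from 0.93 for Dbp to 0.989 for Per2 in the Per/Dbp limb. It was -0.981 for Arntl and -0.956 for Npas2. For the members in neither limb it was 0.692 for Nr1d1, 0.929 for Nr1d2, -0.889 for Clock and -0.14 for Cry1.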
